A study of Mus musculus with 20 samples.

Results

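Very long genes, here protein-coding genes whose annotated exons reach over more than 300 kb of the genome, were followed across CD4+ T cells that lacked or kept DOT1L or were treated with an inhibitor of it. Of 22048 protein-coding genes in the count table, 546 spanned more than 300 kb, 209 of these had at least 200 counts summed over the 20 libraries, and 204 formed the set after 5 genes (Aff3, Bach2, Foxp1, Rora and Tox) were left out by name. Span and summed counts set the limits, whereas the 5 genes were removed by name with earlier results known. The removed genes had log2 fold changes in KO of -0.21, -2.77 and -3.80 (Aff3, in naive, Th1 and Th2 cells), -1.27, -3.98 and -3.53 (Bach2), -0.66, -2.55 and -1.47 (Foxp1), 0.69, 0.39 and -0.45 (Rora) and -0.86, -3.82 and -3.24 (Tox), so counts of lower genes and medians given here do not hold them.

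In a gene of this size nearly all of the transcribed sequence is intron, and RNA polymerase II has to travel a long way before a transcript is complete, so such genes lean on elongation factors and on topoisomerases that relieve the twisting of the template. DOT1L is the methyltransferase of lysine 79 of histone H3, a mark laid down along the body of transcribed genes, and it works together with elongation factors. In T cells the very long genes include signalling enzymes, regulators of small GTPases and transcription factors of lymphocyte development.

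WT mice carried Cre recombinase under control of CD4, and KO mice carried the same Cre with floxed Dot1l. CD4+ T cells were taken from spleen and peripheral lymph nodes. Naive libraries came from the starting population. Th1 and Th2 cultures were kept for 4 days on plate-bound antibodies against CD3 and CD28 at 1 µg/ml each, and viable CD4+ cells were then sorted. Th1 cultures received IL-2 and IL-12 at 10 ng/ml each with anti-IL-4 at 10 µg/ml, and Th2 cultures IL-2 and IL-4 at 10 ng/ml each with anti-IFN-γ at 10 µg/ml. Further WT Th1 and Th2 cultures were grown with 1 µM SGC0946, which inhibits DOT1L, or with 1 µM of its control compound SGC0649. The 10 groups held 2 libraries of total RNA each. Nothing in the labels ties the 2 libraries of a group to different mice, so p-values measure only the spread between these libraries. In RNA from mixed cells, fewer cells of one type and less RNA per cell cannot be told apart.

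Counts in protein-coding genes ran from 9704500 to 13025588 per library. Levels are given in CPM, that is counts scaled to a common library size by TMM, and a gene was called when edgeR's quasi-likelihood test gave an adjusted p under 0.05 over the 13072 genes tested, with no limit on fold. The targeted gene Dot1l stood at 163 and 171 CPM in WT naive cells and at 146 and 166 CPM in KO naive cells. It stood at 176 and 186 against 131 and 146 CPM in Th1 cultures, and at 148 and 164 against 113 and 92.5 CPM in Th2 cultures, WT before KO. The log2 fold changes of Dot1l were -0.10 (adjusted p = 0.544), -0.39 (0.00841) and -0.60 (0.000269), and since the table adds all exons of a gene, reads from exons left in place by the deletion still count. The list of T cell markers summed to between 3396 and 7282 CPM over all groups. In naive cells it summed to 5587 to 5652 CPM in WT and 4186 to 4691 CPM in KO. In Th1 the sums were 6700 to 6875 CPM in WT and 4524 to 4621 CPM in KO. In Th2 they were lower in WT, at 4001 to 4294 CPM, than in KO, at 4755 to 5481 CPM. Markers of other cells also differed between some groups. The CD8 pair summed to 130 to 267 CPM in KO Th2 against 13 to 16.2 CPM in WT Th2, mast cell and basophil genes to 1000 to 2312 CPM in KO Th1 against 149 to 196 CPM in WT Th1, myeloid genes to 707 to 1398 CPM in KO naive against 433 to 566 CPM in WT naive and to 432 to 487 CPM in KO Th2 against 90.8 to 95.7 CPM in WT Th2, and stromal genes to 405 to 505 CPM in KO Th2 against 149 to 173 CPM in WT Th2. In KO Th1 stromal genes summed to 56 to 76.5 CPM against 130 to 137 CPM in WT Th1, NK cell genes to 50.5 to 86.8 against 21.4 to 22.2 CPM and myeloid genes to 142 to 176 against 78.9 to 81.6 CPM. In KO naive cells B cell genes summed to 56.1 to 90.4 CPM against 21.8 to 27.8 CPM in WT, and erythroid genes to 323 to 1339 against 200 to 313 CPM. Siglech, Cdh5 and Col3a1 were at 0 in all WT and KO Th1 and Th2 libraries without compound. The part of these cells in the changes of the very long genes was not tested.

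The median span of the 204 genes was 399984 bases, against 22962.5 bases for all genes tested. Their exons summed to a median of 9720 bases, against 3988 bases, so that exons made up 2.11% of the span at the median and 17.7% over all genes tested. The set held 61 genes over 500 kb and 6 over 1000 kb, lay on 20 chromosomes, and read 110 genes from the plus and 94 from the minus strand. The longest was Macrod2 (GRCm38 chr2:140395309-142392966, plus strand), whose product removes ADP-ribose from proteins. Macrod2 stood between 0.273 and 1.78 CPM over all libraries and passed in none of the KO or inhibitor comparisons. Chd1, a chromatin remodelling enzyme, came second with 1689931 bases in the files, but RefSeq gives it 67646 bases and GENCODE M21 67643 bases. Of 199 genes that could be matched to RefSeq by symbol, 8 were 300 kb or shorter there. Just inside the limit lay Pam with 300532 bases, Plce1 with 303921 and Cmss1 with 304626. Just outside lay Jazf1 with 299834 bases, Akap13 with 299075 and AW554918 with 298322. All 204 genes passed the filter on low counts, at a median average log2 CPM of 3.93 against 4.89 for all genes tested.

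Many very long genes differed between KO and WT cells, in both directions and with medians near 0, as did many of all genes tested. In naive cells 60 of 204 (29.4%) passed the test, 32 higher and 28 lower in KO, where 28.4% of all genes tested passed (16% higher, 12.4% lower). Th1 cultures gave 102 of 204 (50%), 49 higher and 53 lower, beside 50.6% of all genes (24.8% higher, 25.8% lower). In Th2 cultures 138 of 204 (67.6%) passed, 68 higher and 70 lower, beside 53.4% of all genes (26.5% higher, 26.9% lower). The share thus lay near the background in naive and Th1 cells and above it in Th2 cells, in both directions.

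**Figure D1:**
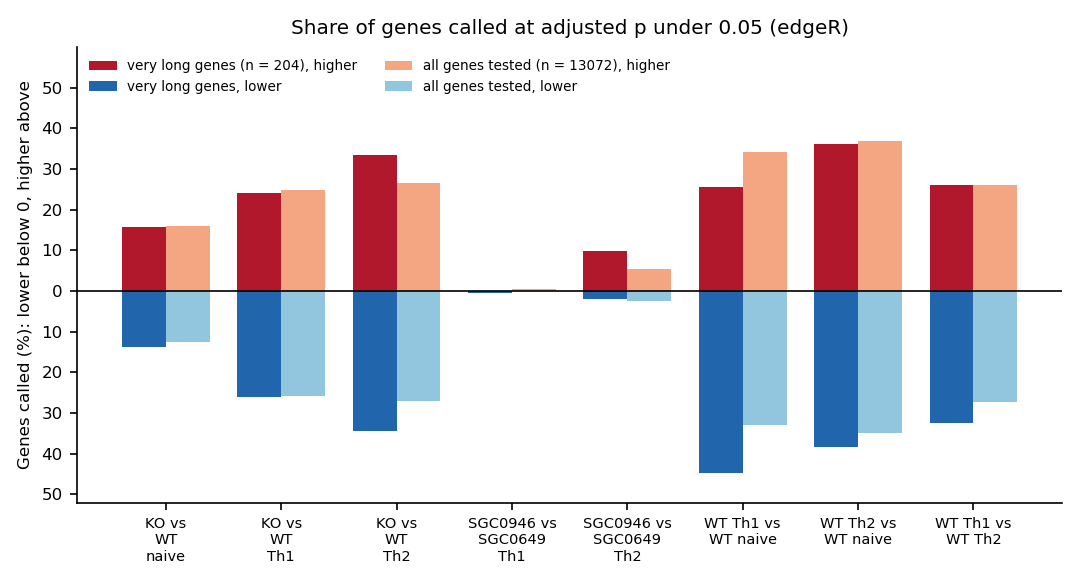
Share of genes called higher or lower in each of 8 comparisons, in percent, for the 204 very long genes and for all 13072 genes tested. The KO Th2 bars of the long genes reach 33.3% higher and 34.3% lower and stand above those of all genes, while the naive and Th1 bars lie close to them.

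The median log2 fold change of the set was 0.0013 in naive cells, 0.036 in Th1 and -0.0014 in Th2, beside 0.013, 0.011 and -0.0081 over all genes. With genes that had 0 counts in one group placed at a floor of 3 counts over the group, these medians were 0.0026, 0.024 and -0.0049. The spread was wider than that of all genes: the interquartile range was 1.05 against 0.67 in naive cells, 1.32 against 0.87 in Th1 and 1.62 against 0.95 in Th2, on the log2 scale. Called changes of at least 2-fold were seen in 22 higher and 2 lower genes of the naive comparison (10.8% and 0.98%, beside 9.06% and 0.887% of all genes). There were 31 and 23 in Th1 (15.2% and 11.3%, beside 11.3% and 5.71%) and 47 and 39 in Th2 (23% and 19.1%, beside 11.8% and 8.81%). In at least 1 of the 3 conditions 173 of 204 genes (84.8%) were called, beside 79.3% of all genes, and 31 (15.2%) were called in none, beside 20.7%. The naive counts rested on single libraries: without WT naive replicate 2 or KO naive replicate 1 the higher genes numbered 19 or 17, and the lower genes fell to between 10 and 17 when any 1 naive library was left out.

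Of the 204 genes, 10 (4.9%) were lower in KO cells in all 3 conditions, beside 3.37% of all genes. They were Arhgap15, Chd1, Exoc6b, Gphn, Hivep3, Inpp4b, Pde4d, Prkca, Sh3kbp1 and Zbtb20. The naive call of Gphn was lost with no filter (adjusted p = 0.102), with DESeq2 (0.111), with the replicate number fitted as a block, called the replicate block here (0.0526), and without any 1 naive library (0.127 to 0.158). Exoc6b lost its naive call without WT naive replicate 2 (0.243) or KO naive replicate 1 (0.201). In Th1 the call ended when WT replicate 1 (0.0518), WT replicate 2 (0.0662) or KO replicate 1 (0.0755) was left out, and in Th2 without replicate 2 of WT (0.102) or of KO (0.0896). Pde4d (chr13:108449948-109953461, plus strand), a phosphodiesterase that degrades cyclic AMP, stood at 286 and 284 CPM in WT naive cells and at 81.4 and 82.4 CPM in KO naive cells. In Th1 cultures it stood at 184 and 186 CPM in WT and at 95.3 and 91.9 CPM in KO. In Th2 cultures it stood at 158 and 171 CPM in WT and at 81.8 and 97.3 CPM in KO. Every KO library thus lay below every WT library of its condition. The log2 fold changes were -1.80 ± 0.19 (SE) in naive cells, -0.98 ± 0.18 in Th1 and -0.88 ± 0.18 in Th2, with adjusted p = 1.03e-05, 0.000452 and 0.000966. The fall was larger in naive cells than in Th1 by 0.82 ± 0.26 (adjusted p = 0.0283) and than in Th2 by 0.92 ± 0.26 (adjusted p = 0.012). These tests of differences between KO effects were added after values had been seen.

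Inpp4b (chr8:81342556-82125036, plus strand), which removes the 4-phosphate from phosphatidylinositol 3,4-bisphosphate, changed more in culture than in naive cells. WT naive cells held 385 and 380 CPM and KO naive cells 167 and 214 CPM. In Th1 cultures the levels were 133 and 144 CPM in WT and 39.1 and 35.6 CPM in KO, and in Th2 cultures 180 and 183 CPM in WT and 27.6 and 49.9 CPM in KO. The groups did not overlap in any condition. Log2 fold changes were -1.0 ± 0.18 in naive cells, -1.89 ± 0.19 in Th1 and -2.24 ± 0.20 in Th2 (adjusted p = 0.000989, 1.82e-06 and 2.22e-07). The Th1 and Th2 effects were lower than the naive effect by 0.89 ± 0.26 (adjusted p = 0.0208) and 1.24 ± 0.26 (0.00198).

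Prkca (chr11:107933387-108343928, minus strand) encodes protein kinase C alpha, an enzyme switched on by calcium and diacylglycerol. It stood at 124 and 125 CPM in WT naive and 75.9 and 77.9 CPM in KO naive cells, and at 84.1 and 91.3 against 41.8 and 35.7 CPM in Th1. In Th2 cultures the WT libraries held 88.1 and 109 CPM and the KO libraries 32.1 and 31.4 CPM. KO levels were below WT levels throughout, and the log2 fold change grew from -0.70 ± 0.10 in naive cells to -1.18 ± 0.10 in Th1 and -1.63 ± 0.10 in Th2 (adjusted p = 8.8e-05, 1.14e-07 and 1.75e-09). The Th1 effect differed from the naive effect (adjusted p = 0.0176) and from the Th2 effect (adjusted p = 0.0162), each tested as a difference of effects.

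Hivep3 (chr4:119733784-120138045, plus strand), a large zinc finger factor of the Schnurri family, rose in culture in WT cells, with log2 fold changes of 2.56 (Th1) and 3.49 (Th2) over naive cells. It stood at 30.9 and 28.6 CPM in WT naive cells, at 159 and 192 CPM in WT Th1 and at 373 and 293 CPM in WT Th2. KO libraries held 17.1 and 20.6 CPM in naive cells, 23.1 and 29 CPM in Th1 and 12.8 and 13.2 CPM in Th2. No KO culture exceeded 29 CPM, a level within that of the WT naive libraries. The log2 fold change was -2.75 ± 0.15 in Th1 and -4.68 ± 0.17 in Th2 (adjusted p = 1.02e-09 and 3.83e-12). In naive cells it was -0.66 ± 0.17 (adjusted p = 0.00789), and the call was lost without WT naive replicate 1 (0.0548) or KO naive replicate 1 (0.107).

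Sh3kbp1 (chrX:159627272-159978069, plus strand) encodes CIN85, an adaptor in the internalisation of surface receptors. It stood at 398 and 389 CPM in WT Th1 against 96 and 89 CPM in KO Th1, and at 330 and 330 CPM in WT Th2 against 150 and 145 CPM in KO Th2. The log2 fold changes were -2.09 ± 0.11 and -1.16 ± 0.10 (adjusted p = 3.25e-10 and 9.33e-08), and the Th1 effect was lower than the Th2 effect by 0.93 ± 0.15 (adjusted p = 8.67e-05). In naive cells, at 386 and 400 CPM in WT and 293 and 318 CPM in KO, the log2 fold change was -0.36 ± 0.10 (adjusted p = 0.0144) and passed no longer without WT naive replicate 2 (0.0928) or KO naive replicate 1 (0.137). Arhgap15, which turns off the small GTPase Rac, was lower by 0.69, 0.97 and 0.58 on the log2 scale in naive, Th1 and Th2 cells, and Zbtb20, a zinc finger repressor, by 0.61, 1.37 and 0.56. The exon annotation of Zbtb20 overlaps another gene on the same strand. Chd1 had log2 fold changes of -0.33, -0.22 and -0.28. It lost its Th1 call without WT Th1 replicate 1 (log2 fold change -0.18) or KO Th1 replicate 2 (-0.22).

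**Figure D2:**
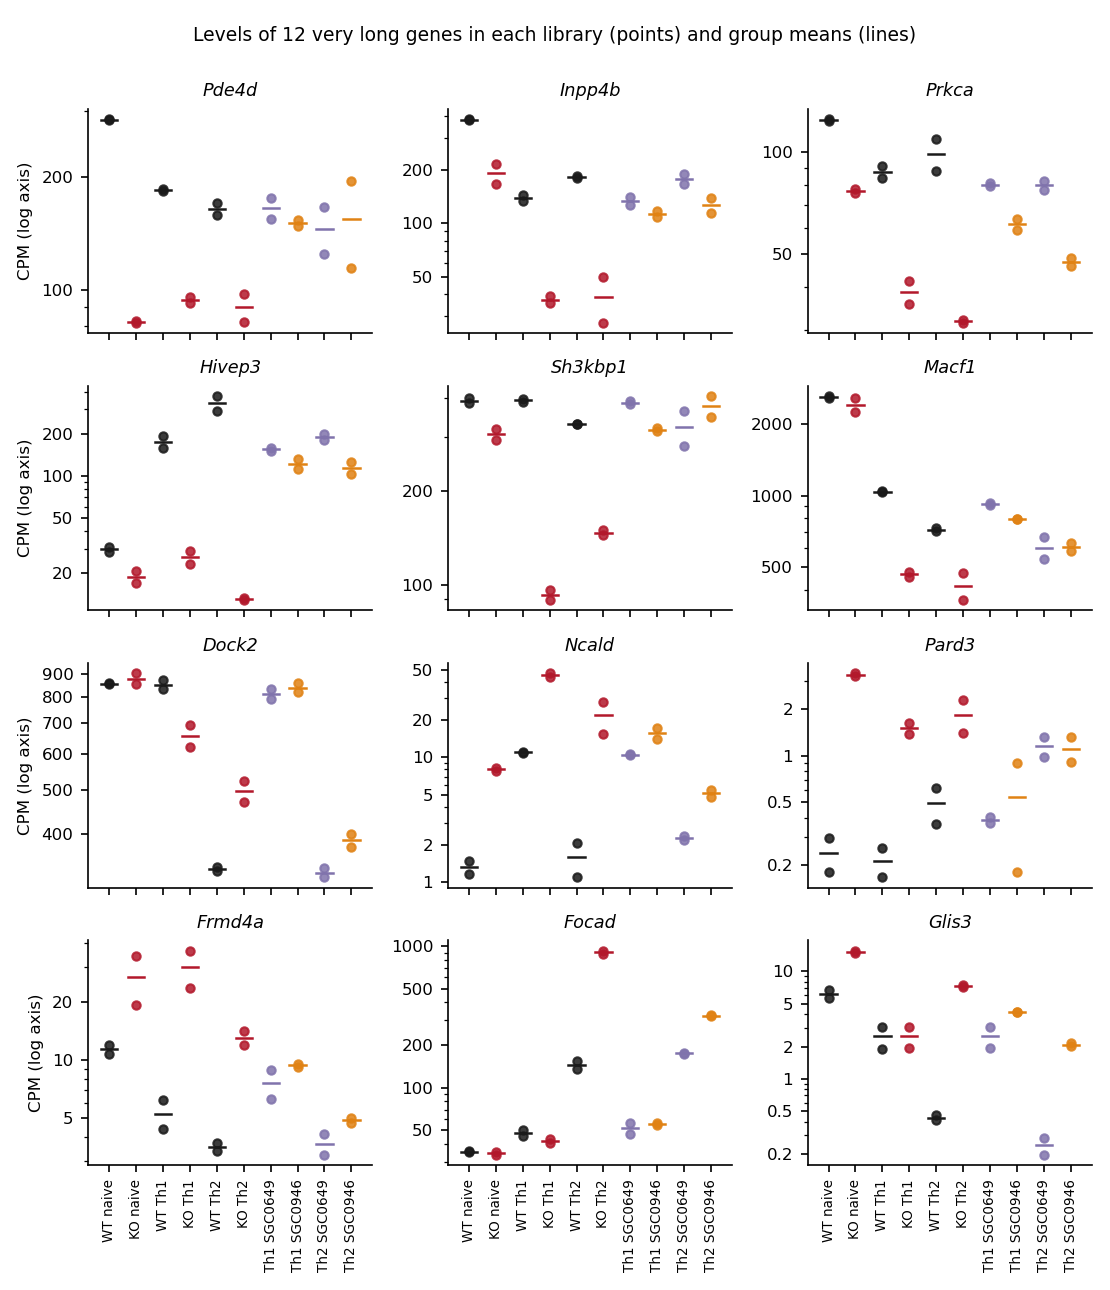
CPM on a log axis in every library of 12 very long genes, with 1 point per library and the groups side by side. Pde4d, Inpp4b, Prkca, Hivep3 and Sh3kbp1 lie lower in KO than in WT, whereas Ncald, Pard3 and Frmd4a lie higher, and Focad and Glis3 rise in KO Th2 and with SGC0946 in Th2.

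Genes higher in KO in all 3 conditions numbered 8 (3.92%, beside 4.56% of all genes): Agap1, Arhgap26, Arhgap6, Frmd4a, Kalrn, Mid1, Ncald and Pard3. Agap1, Arhgap26, Arhgap6 and Kalrn regulate small GTPases. Agap1 lost its naive call with DESeq2 (adjusted p = 0.0546) and without WT naive replicate 1 (0.182), WT naive replicate 2 (0.086) or KO naive replicate 1 (0.586). Arhgap6, whose exons overlap another gene on the same strand, lost its naive call without WT naive replicate 1 (0.0574), WT naive replicate 2 (0.129) or KO naive replicate 1 (0.135). Mid1 lost its naive call without replicate 2 of WT (0.13) or of KO (0.111), and its Th2 call without replicate 2 of WT (0.05003) or of KO (0.0555). The Th1 call of Arhgap26 was lost without WT Th1 replicate 2 (0.199) or KO Th1 replicate 1 (0.099). Ncald (chr15:37366175-37792570, minus strand), the calcium-binding protein neurocalcin delta, stood at 1.47 and 1.17 CPM in WT naive and at 7.82 and 8.18 CPM in KO naive cells. It stood at 11 and 10.8 against 46.8 and 43.8 CPM in Th1 and at 1.09 and 2.07 against 15.3 and 27.8 CPM in Th2. All KO libraries lay above all WT libraries of their condition, and the log2 fold changes were 2.60 ± 0.33, 2.05 ± 0.21 and 3.77 ± 0.29 (adjusted p = 2.99e-05, 8.78e-07 and 1.63e-08). The exons of Ncald overlap those of another gene on the same strand, so part of its reads may be uncertain.

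Frmd4a, a scaffold with a FERM domain, stood at 6.2 and 4.38 CPM in WT Th1 and at 36.6 and 23.4 CPM in KO Th1 (log2 fold change 2.50 ± 0.28, adjusted p = 2.29e-06). In Th2 it stood at 3.74 and 3.41 CPM in WT and at 11.9 and 14.1 CPM in KO (1.85 ± 0.32, adjusted p = 0.000117). In naive cells the change was 1.24 ± 0.26 (adjusted p = 0.00249), with 0.0673 when KO naive replicate 1 was left out. Pard3, a protein of cell polarity, was at most 1.32 CPM in all WT libraries, those with compound included. It reached 3.24 and 3.36 CPM in KO naive cells, against 0.295 and 0.18 CPM in WT naive cells (3.75 ± 0.55, adjusted p = 0.000131), a fold that rests on few WT counts. With 234 counts over the 20 libraries, near the limit of 200, Pard3 entered the set partly through KO libraries. Its Th2 call (1.87 ± 0.53, adjusted p = 0.00649) was lost without WT Th2 replicate 1 (0.0685) or KO Th2 replicate 2 (0.0632). Kalrn, an exchange factor of small GTPases, was higher by 1.66, 2.78 and 2.19 on the log2 scale in naive, Th1 and Th2 cells and lost its naive call without WT naive replicate 1 (0.0592).

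The sequence just upstream of the start site is shown for 3 genes that were lower and 2 that were higher in KO in all conditions, because it shows how unlike the starts of genes that moved together can be. The naive calls of Hivep3, Sh3kbp1, Agap1 and Mid1 and the Th2 call of Mid1 are among those lost without 1 library. Each line holds the 250 bases before the RefSeq start on GRCm38.p6, 5′ to 3′ on the gene's strand, with CG dinucleotides in capitals.
Prkca: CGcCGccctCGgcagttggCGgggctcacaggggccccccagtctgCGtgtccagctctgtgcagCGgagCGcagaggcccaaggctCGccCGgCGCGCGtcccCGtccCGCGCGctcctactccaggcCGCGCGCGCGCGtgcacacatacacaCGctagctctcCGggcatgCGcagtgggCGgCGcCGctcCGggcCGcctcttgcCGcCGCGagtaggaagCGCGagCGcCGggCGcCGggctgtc
Sh3kbp1: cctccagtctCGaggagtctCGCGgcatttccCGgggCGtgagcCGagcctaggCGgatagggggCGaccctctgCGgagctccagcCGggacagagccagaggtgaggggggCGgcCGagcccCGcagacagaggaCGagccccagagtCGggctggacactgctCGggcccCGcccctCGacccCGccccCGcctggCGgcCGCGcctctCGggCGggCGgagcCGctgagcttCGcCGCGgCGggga
Hivep3: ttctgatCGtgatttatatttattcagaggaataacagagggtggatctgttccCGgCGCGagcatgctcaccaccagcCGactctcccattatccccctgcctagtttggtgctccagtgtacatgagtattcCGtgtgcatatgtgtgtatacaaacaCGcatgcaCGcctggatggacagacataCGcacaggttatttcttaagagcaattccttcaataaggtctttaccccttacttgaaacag
Agap1: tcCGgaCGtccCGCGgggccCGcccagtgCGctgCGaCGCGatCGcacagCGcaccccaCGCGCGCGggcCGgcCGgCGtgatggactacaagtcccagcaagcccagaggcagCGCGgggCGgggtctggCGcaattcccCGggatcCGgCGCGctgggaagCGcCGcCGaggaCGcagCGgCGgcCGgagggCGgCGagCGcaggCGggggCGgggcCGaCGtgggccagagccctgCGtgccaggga
Mid1: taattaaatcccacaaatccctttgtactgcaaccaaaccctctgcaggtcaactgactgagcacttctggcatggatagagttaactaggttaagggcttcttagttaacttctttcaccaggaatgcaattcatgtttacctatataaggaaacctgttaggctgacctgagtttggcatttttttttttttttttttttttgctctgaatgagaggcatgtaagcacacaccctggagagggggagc
These windows lie at chr11:108343889-108344138 on the minus strand for Prkca, and on the plus strand at chrX:159627022-159627271 for Sh3kbp1, chr4:119814428-119814677 for Hivep3, chr1:89454561-89454810 for Agap1 and chrX:169684949-169685198 for Mid1. Prkca held 39 CG in these 250 bases, Sh3kbp1 31 and Agap1 41, at a G and C content of 76.8%, 76.4% and 78.8%. Hivep3 held 9 CG at 46.4%, and its RefSeq start lies 80.9 kb downstream of the start of the gene in the files. Mid1 held 0 CG at 40.8%. Among these chosen examples, CG-rich starts thus stood in both directions of change. The only CG-poor start of a lower gene was that of Hivep3. Its window lies inside the gene of the files, and whether the counted transcripts start there was not tested.

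Windows of 300 bases held 250 before and 50 after the start, and those on chromosome 18 were not used. With 1 window per gene, 157 of 204 very long genes had an entry, at a median G and C content of 64.7% and a median of 21 CG. The 32851 RefSeq windows used had 52.7% and 7 CG. These were not limited to expressed genes or to 1 per gene, so this is not a comparison by length alone. The motif GGGCGG was in 59.9% of the windows of long genes and in 35.7% of all windows on either strand, and TATAAA in 5.73% and 13.6%. Among long genes lower in KO Th1 the median was 65.5% G and C and 21.5 CG (40 windows), and among those higher in KO Th1 61.2% and 20.5 CG (38 windows). In Th2 the medians were 60.3% and 19 CG for lower genes (56 windows) and 65.8% and 22.5 CG for higher genes (52 windows). Genes lower in KO in all 3 conditions had a median of 20 CG (9 windows), and those higher in all 3 had 11.5 CG (6 windows). The letters TGACTCA, read on either strand, were in 4 of 38 windows of genes higher in KO Th1 and in 0 of 40 of genes lower there, beside 5.20% of all windows. In Th2 they were in 1 of 52 windows of higher and 0 of 56 of lower genes. CACGTG was in 0 of 38 higher and 5 of 40 lower in Th1, and in 2 of 52 and 6 of 56 in Th2. GGGCGG was in 16 of 38 and 25 of 40 in Th1, and in 31 of 52 and 29 of 56 in Th2. These small counts were not tested. A match of letters is a description and not a binding site.

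By role, the list of kinases, phosphatases and lipid signalling held 27 genes. It gave 1 higher and 5 lower genes in KO naive cells, 9 higher and 8 lower in Th1, and 10 higher and 8 lower in Th2. The list is not limited to enzymes, since Akap6, Plcl1 and Tanc2 are on it, while the phosphodiesterase Pde11a was in no list. The phosphodiesterases split. Pde4d was lower throughout, but its paralog Pde4b (chr4:102087543-102607259, plus strand), which also degrades cyclic AMP, was higher in Th2. It stood at 296 and 239 CPM in WT Th2 and at 772 and 667 CPM in KO Th2, with no overlap and a log2 fold change of 1.43 ± 0.20 (adjusted p = 2.78e-05). In Th1 it stood at 243 and 221 against 306 and 276 CPM (0.33 ± 0.20, adjusted p = 0.177) and in naive cells at 358 and 370 against 251 and 255 CPM (-0.52 ± 0.20, adjusted p = 0.0614), neither of which passed, although the naive change did with the replicate block (0.0108) and with DESeq2 (0.0251). The difference of its KO effect between Th2 and naive cells was 1.95 ± 0.28 (adjusted p = 9.14e-05). Pde10a, which degrades cyclic AMP and cyclic GMP, was low in WT cultures and higher in KO by 3.14 ± 0.66 in Th1 and 3.35 ± 0.35 in Th2 (adjusted p = 0.000875 and 5e-07), from 3.01 and 3 CPM to 37 and 24.3 CPM in Th2. Pde7b passed in Th1 only, where it stood at 0.255 and 0.248 CPM in WT and at 2.86 and 3.14 CPM in KO (3.52 ± 0.54, adjusted p = 5.47e-05), and its effect there was larger than in Th2 by 3.70 ± 0.68 (adjusted p = 0.000316).

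Plcl1, a phospholipase C-like protein without catalytic activity, stood at 8.3 and 6.93 CPM in WT Th2 and at 31.9 and 41.8 CPM in KO Th2 (2.27 ± 0.24, adjusted p = 6.27e-07). Akap6, an anchor of protein kinase A, stood at 2.01 and 4.65 CPM in WT Th2 and at 28.6 and 21.8 CPM in KO Th2 (2.94 ± 0.40, adjusted p = 1.27e-05), and was higher in KO Th1 as well (3.19 ± 0.61, adjusted p = 0.000458). In the other direction, Tanc2, a scaffold protein, stood at 603 and 518 CPM in WT Th2, against 10.3 and 9.79 CPM in WT naive and 6.71 and 6.7 CPM in WT Th1. KO Th2 libraries held 167 and 112 CPM of it (-2.0 ± 0.16, adjusted p = 3.66e-08). Plce1, a phospholipase C that answers Ras-like GTPases, stood at 6.93 and 10 CPM in WT Th2 and at 0.438 and 0 CPM in KO Th2 (-5.08 ± 0.59, adjusted p = 2.46e-06). In Th1 it was at 0 in both KO libraries and at 0.17 and 0.414 CPM in WT, too low for a fold, and the Th1 call ended when WT replicate 2 (adjusted p = 0.155) or either KO library (0.114 and 0.106) was left out.

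GTPase regulators (15 genes) were called higher 4 times and lower 1 time in naive cells, 5 and 4 times in Th1, and 10 and 3 times in Th2. Dock2 and Vav3 changed direction between the cultures. Dock2 (chr11:34226815-34783892, minus strand), the exchange factor through which lymphocytes activate Rac when they migrate, had the highest level per kb of exon in the set, at 56.4 CPM per kb averaged over the libraries. It stood at 871 and 833 CPM in WT Th1 and at 621 and 696 CPM in KO Th1 (-0.37 ± 0.08, adjusted p = 0.00118). In Th2 it stood at 340 and 333 CPM in WT and at 472 and 524 CPM in KO (0.57 ± 0.08, adjusted p = 1.89e-05). In naive cells the groups overlapped, at 854 and 858 against 853 and 901 CPM (0.03 ± 0.08, adjusted p = 0.792). The gap between WT Th1 and WT Th2 was thus narrower between the KO cultures. Vav3, an exchange factor that acts below antigen receptors, moved in the same way, from 40.1 and 35.5 to 19.3 and 17.9 CPM in Th1 (-1.02 ± 0.12, adjusted p = 4.51e-06) and from 20 and 22.1 to 35.1 and 43.5 CPM in Th2 (0.90 ± 0.13, adjusted p = 1.35e-05). The Th1 effect minus the Th2 effect was -0.94 ± 0.12 for Dock2 and -1.92 ± 0.18 for Vav3 (adjusted p = 7.17e-06 and 3.89e-07).

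Elmo1, the partner of DOCK proteins in Rac activation, went the other way from Dock2 in Th2, with 166 and 188 CPM in WT and 78.4 and 74.2 CPM in KO (-1.21 ± 0.08, adjusted p = 3.75e-09). In Th1 it stood at 120 and 125 against 114 and 124 CPM (-0.04 ± 0.08, adjusted p = 0.715). Rabgap1l, a regulator of Rab GTPases, stood at 356 and 407 CPM in WT Th2 and at 275 and 181 CPM in KO Th2 (-0.74 ± 0.13, adjusted p = 0.000158). The KO libraries of Rabgap1l lay further apart from each other than the WT libraries, yet both were below them.

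**Figure D3:**
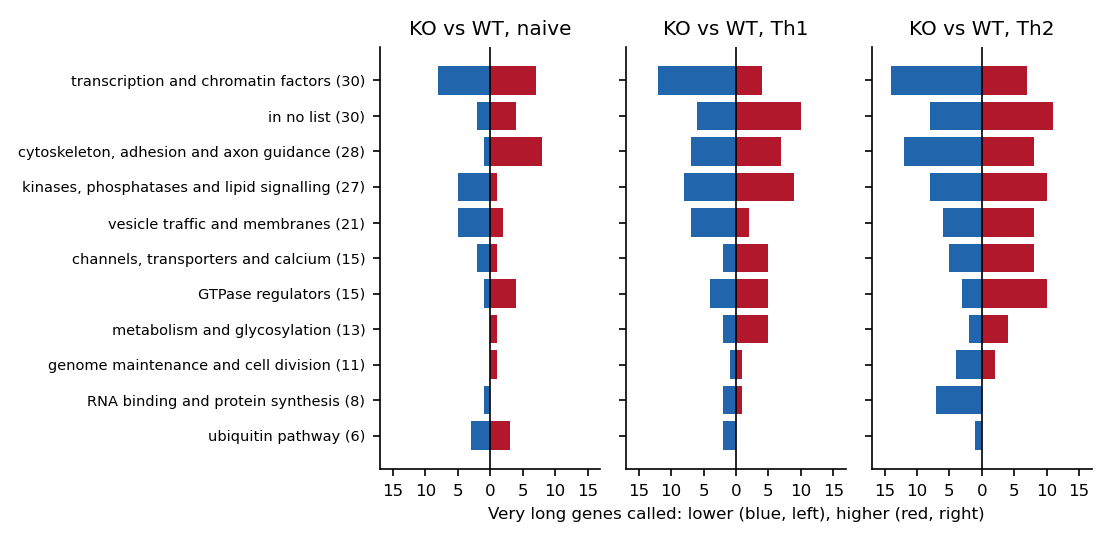
Number of very long genes called higher or lower in KO in each role list, for naive, Th1 and Th2 cells. In Th2 the GTPase regulators stand at 10 higher and 3 lower of 15 and the RNA-binding and protein synthesis genes at 0 higher and 7 lower of 8, while most other lists hold both directions.

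Transcription and chromatin factors (30 genes) gave 7 higher and 8 lower genes in naive cells, 4 and 12 in Th1 and 7 and 14 in Th2. The lower genes included the corepressor Rere, at 125 and 114 CPM in WT Th1 and 25.2 and 27.7 CPM in KO Th1 (-2.17 ± 0.18, adjusted p = 1.34e-07). In Th2 Rere stood at 131 and 131 against 90.6 and 86.2 CPM (-0.57 ± 0.17, adjusted p = 0.00922), and the Th1 effect was lower by 1.61 ± 0.24 (adjusted p = 7.45e-05). Runx2, a Runt factor best known from bone, was higher in KO naive cells, at 66.7 and 53.8 CPM against 19.2 and 14.3 CPM in WT (1.85 ± 0.25, adjusted p = 0.000137). Runx2 was also higher in KO Th2, at 103 and 107 against 49.5 and 47.4 CPM (1.11 ± 0.23, adjusted p = 0.000842), and stood at 164 and 153 against 125 and 114 CPM in Th1, where the change did not pass (0.41 ± 0.21, adjusted p = 0.129, and 0.0448 with the replicate block). In each of these pairs the KO libraries lay above the WT libraries.

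Setbp1, which binds the histone chaperone SET, reversed between naive and cultured cells. KO naive cells held 23 and 21.2 CPM against 5.2 and 4.4 CPM in WT (2.20 ± 0.16, adjusted p = 2.82e-07). KO Th1 cultures held 23.5 and 22.4 CPM against 58.9 and 53.6 CPM (-1.29 ± 0.13, adjusted p = 5.15e-07), and KO Th2 cultures 9.63 and 10.5 against 33.9 and 25 CPM (-1.56 ± 0.15, adjusted p = 1.54e-07). Between WT naive and WT Th1 the level of Setbp1 rose by 3.55 ± 0.16 on the log2 scale, whereas the KO naive and KO Th1 libraries lay between 21.2 and 23.5 CPM.

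Glis3 (chr19:28258851-28680077, minus strand), a zinc finger factor, stood at 0.456 and 0.413 CPM in WT Th2 and at 7.18 and 7.55 CPM in KO Th2 (4.04 ± 0.36, adjusted p = 8.32e-08). Its WT Th2 level was below 1 CPM, so this fold rests on few counts. In naive cells it stood at 6.77 and 5.66 against 15.6 and 15 CPM (1.30 ± 0.23, adjusted p = 0.000629), while in Th1 the groups overlapped at 1.9 to 3.06 CPM. Ebf1, the B cell factor that also stands in the list of B cell markers, stood at 14.1 and 10.4 CPM in WT Th2 and at 2.71 and 0.108 CPM in KO Th2 (-3.02 ± 0.61, adjusted p = 0.000673). The summed B cell markers ranged from 26 to 47.2 CPM in WT Th2 and from 19.1 to 24.8 CPM in KO Th2, with Ebf1 itself in both sums, and their part in this result was not tested.

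The list of RNA binding and protein synthesis (8 genes) had the most one-sided counts of the role lists in KO Th2. It held 0 higher and 7 lower genes at a median log2 fold change of -0.73, where 26.9% of all genes tested were lower. It was singled out by these counts and is not complete, since Snd1 and Rsrc1, whose products also act on RNA, were in no list. In naive cells 1 was lower, and in Th1 1 was higher and 2 were lower. Msi2 (chr11:88339382-88718513, minus strand), a Musashi protein that regulates translation, stood at 172 and 163 CPM in WT Th2 and at 80.2 and 75.6 CPM in KO Th2 (-1.10 ± 0.10, adjusted p = 5.65e-08). In Th1 it stood at 136 and 131 against 79.6 and 73.4 CPM (-0.81 ± 0.09, adjusted p = 3.16e-06), and in naive cells at 108 and 104 against 89.5 and 102 CPM (-0.15 ± 0.09, adjusted p = 0.26). The other 6 in Th2 were Cdkal1, Cmss1, Dis3l2, Fars2, Gtdc1 and Scaper, of which Dis3l2 lost the call without WT Th2 replicate 2 (adjusted p = 0.481) or KO Th2 replicate 1 (0.165) and Gtdc1 without WT Th2 replicate 1 (0.0795). Fars2, the mitochondrial tRNA synthetase for phenylalanine, stood at 43.4 and 41.9 CPM in WT Th2 and at 20.7 and 21.6 CPM in KO Th2 (-1.02 ± 0.14, adjusted p = 1.58e-05). Celf2, a splicing regulator and the most abundant gene of the list, stood at 134 and 141 against 141 and 155 CPM in Th2 (0.11 ± 0.09, adjusted p = 0.338).

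Genes of cytoskeleton, adhesion and axon guidance (28 genes) were called higher 8 times and lower 1 time in KO naive cells, 7 and 7 times in Th1 and 8 and 12 times in Th2. Macf1 (chr4:123349633-123684360, minus strand), which links actin to microtubules, supplied 11.8% of all counts of the very long genes. It stood at 1037 and 1042 CPM in WT Th1 and at 452 and 475 CPM in KO Th1, and at 707 and 727 against 472 and 361 CPM in Th2. The log2 fold changes were -1.16 ± 0.12 and -0.78 ± 0.12 (adjusted p = 5.73e-07 and 2.52e-05). Naive cells held more of it and the change did not pass, at 2632 and 2598 against 2260 and 2576 CPM (-0.11 ± 0.11, adjusted p = 0.495). Utrn, the relative of dystrophin called utrophin, stood at 370 and 361 against 93.7 and 98.2 CPM in Th1 (-1.93 ± 0.15, adjusted p = 8.21e-08) and at 278 and 271 against 145 and 112 CPM in Th2 (-1.09 ± 0.15, adjusted p = 1.64e-05). Cdh23, a cadherin known from the tip links of hair cells, stood at 80.3 and 92 CPM in WT Th1 and at 2.86 and 3.46 CPM in KO Th1, the lowest fold change of the set in Th1 (-4.76 ± 0.27, adjusted p = 3.27e-09). Nebl, which encodes the actin-binding protein nebulette, was higher in KO naive cells (1.79 ± 0.25, adjusted p = 9.14e-05) and in KO Th1, at 62.5 and 48 against 8.83 and 8.27 CPM (2.69 ± 0.23, adjusted p = 1.42e-07), and did not pass in Th2 (-0.61 ± 0.29, adjusted p = 0.0933, and 0.0347 with the replicate block).

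Among channels, transporters and calcium genes (15 genes), 1 was higher and 2 were lower in naive cells, 5 and 2 in Th1 and 8 and 5 in Th2. Both receptors for inositol trisphosphate in the set, which release calcium from the endoplasmic reticulum, changed. Itpr1 stood at 146 and 147 CPM in WT Th1 and at 232 and 246 CPM in KO Th1 (0.71 ± 0.14, adjusted p = 0.000694), and at 279 and 274 against 392 and 263 CPM in Th2, where the groups overlapped (0.25 ± 0.14, adjusted p = 0.156). Itpr2 stood at 124 and 112 against 62.1 and 66.7 CPM in Th1 (-0.87 ± 0.10, adjusted p = 1.68e-06) and at 102 and 107 against 143 and 151 CPM in Th2 (0.49 ± 0.09, adjusted p = 0.000355). Slc9a9, a sodium and proton exchanger of endosomes, stood at 7.76 and 6.31 CPM in WT Th2 and at 27 and 49.5 CPM in KO Th2 (2.43 ± 0.23, adjusted p = 2.17e-07). Cacnb2, a subunit of voltage-gated calcium channels, stood at 8.32 and 8.27 against 2.79 and 2.74 CPM in Th1 (-1.58 ± 0.28, adjusted p = 0.00017) and at 2.19 and 1.86 against 0.263 and 0.216 CPM in Th2 (-3.01 ± 0.51, adjusted p = 9.38e-05).

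Vesicle traffic and membrane genes (21 genes) were called higher 2 times and lower 5 times in naive cells, 2 and 7 times in Th1 and 8 and 6 times in Th2. Lrba, which keeps CTLA-4 from being degraded in lysosomes, stood at 99.7 and 108 CPM in WT Th2 and at 63.6 and 61.9 CPM in KO Th2 (-0.73 ± 0.09, adjusted p = 2e-06), and did not pass in naive cells or Th1. In naive cells it was lower by 0.22 (adjusted p = 0.0566) and passed with the replicate block (0.0436), with RLE scaling (0.0487) and without KO naive replicate 2 (0.0377). Vps13b, a lipid transfer protein of the Golgi, was lower in both cultures (-0.64 ± 0.07 in Th1 and -0.49 ± 0.08 in Th2, adjusted p = 2.74e-06 and 3.37e-05). Sorcs2, a sorting receptor, stood at 8.83 and 8.85 CPM in WT Th1 and at 0.464 and 1.13 CPM in KO Th1 (-3.46 ± 0.31, adjusted p = 1.9e-07). Of 6 ubiquitin pathway genes, 3 were higher and 3 lower in naive cells, 2 were lower in Th1 and 1 was lower in Th2. In the list of genome maintenance and cell division (11 genes), 1 was called in naive cells, 2 in Th1 and 6 in Th2. The naive call was that of Palld, which encodes palladin, a protein of the actin cytoskeleton. In Th2 Mad1l1, of the spindle checkpoint, was higher at 33.7 and 48.5 against 13.7 and 15.6 CPM (1.49 ± 0.24, adjusted p = 6.8e-05). Of 13 metabolism and glycosylation genes, 1 was higher in naive cells, 5 were higher and 2 lower in Th1, and 4 were higher and 2 lower in Th2, the latter including Fto, an RNA demethylase (-0.57 ± 0.09, adjusted p = 6.51e-05).

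Among the 30 genes in no list, Focad and Mei4 marked Th2 cultures. Focad (chr4:88094629-88411011, plus strand), which encodes focadhesin, stood at 153 and 135 CPM in WT Th2 and at 886 and 929 CPM in KO Th2. In WT Th1 it stood at 45.8 and 50.5 CPM and in KO Th1 at 40.7 and 43.4 CPM, and in naive cells all 4 libraries lay between 33.6 and 35.5 CPM. The change in Th2 was 2.65 ± 0.09 on the log2 scale (adjusted p = 1.14e-12), and the Th1 effect minus the Th2 effect was -2.85 ± 0.13 (adjusted p = 4.12e-10). Mei4, known from meiotic recombination, stood at 15.2 and 15.4 CPM in WT Th2 and at 0.7 and 1.19 CPM in KO Th2 (-4.04 ± 0.28, adjusted p = 4.7e-09).

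Calls in opposite directions in KO Th1 and KO Th2 were made for 22 of 204 genes (10.8%), beside 9.86% of all genes tested. Higher in Th1 and lower in Th2 were 11: Adk, Cmss1, Dach2, Ltbp1, Mei4, Pcdh7, Pola1, Slc24a3, Slc7a11, Tln2 and Zbtb7c. Lower in Th1 and higher in Th2 were the other 11: Baz2b, Bcas3, Camta1, Dock2, Dst, Edil3, Gse1, Itpr2, Prkcb, Vav3 and Vwa8. Lower in both cultures were 30 genes (14.7%, beside 10.2% of all genes), and higher in both 22 (10.8%, beside 9.93%). The difference between the Th1 and Th2 effects passed for 96 of 204 genes (45 higher and 51 lower, beside 46.2% of all genes), that between Th1 and naive cells for 61 (23 and 38, beside 27.5%) and that between Th2 and naive cells for 92 (43 and 49, beside 35.7%). The Th1 and Th2 effects share neither WT nor KO libraries.

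The average level of a very long gene went with the direction of its change, as it did for all genes. This average comes from the same 20 libraries as the fold changes, and most of these are not KO. A gene low in WT and high in KO thus tends to a low average, and a gene lost in KO to a high one. Weakly counted genes also entered only through groups where they were counted. The average is thus not independent of the fold change, and how much of the relation rests on this was not tested. In KO Th1, of the 36 long genes with an average log2 CPM over 6, 2 were higher and 22 lower (61.1%, beside 46.7% of all genes at that level), with a median log2 fold change of -0.43 beside -0.20. Of the 62 with an average log2 CPM up to 2, 23 were higher and 4 lower (37.1% higher, beside 30.4% of all genes at that level), with a median of 0.98 beside 0.66. In KO naive cells the most abundant 36 gave 3 higher and 12 lower (33.3%, beside 20.4%), and in KO Th2 10 higher and 19 lower (52.8%, beside 33.7%). Across the 204 genes, Spearman's rank correlation between average log2 CPM and log2 fold change was -0.42 in naive cells, -0.51 in Th1 and -0.16 in Th2, and the rank correlation with span was 0.050, 0.087 and -0.044. Genes are not independent replicates and share libraries, so these are descriptions. 

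**Figure D4:**
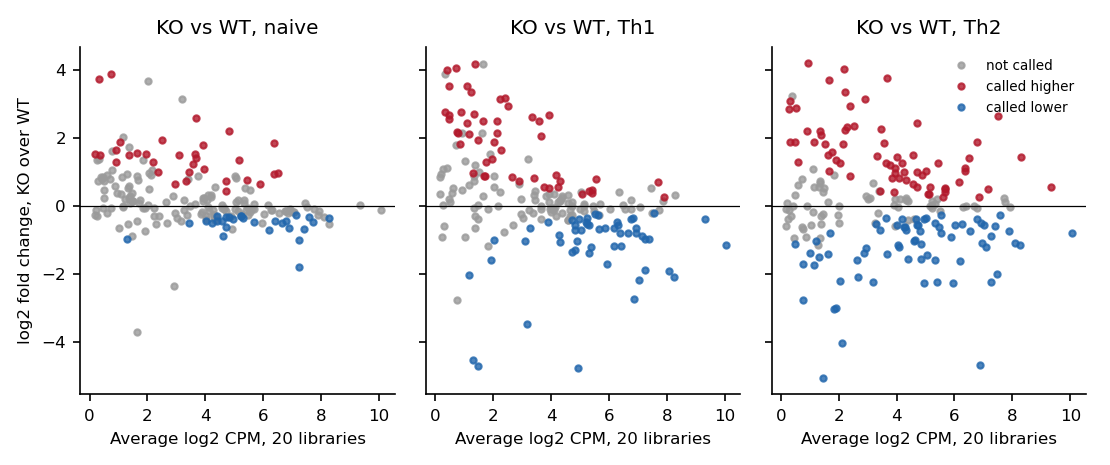
Log2 fold change of each very long gene in KO against WT, plotted against its average log2 CPM, for naive, Th1 and Th2 cells, with called genes marked by direction. In Th1 the genes over 6 on the level axis are mostly called lower (22 of 36) and those up to 2 have a median of 0.98.

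Grouping all tested genes by span gave no steady step at 300 kb. In KO Th1 the share called lower was 18.1% under 10 kb, 24.6% from 10 to 30 kb, 30.7% from 30 to 100 kb and 35.2% from 100 to 300 kb. Over 300 kb it was 22.5%, among 253 tested genes that include the 5 left out by name and genes below the count limit, at a median log2 CPM of 3.09 beside 4.83 from 100 to 300 kb. In KO Th2 the shares lower were 21%, 27.4%, 30%, 30.4% and 30.4% over the same classes. The shares higher were 26.7%, 25.9%, 26%, 28.6% and 30.8%.

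The catalytic inhibitor gave far fewer calls than deletion. In Th1 cultures SGC0946 against SGC0649 changed 1 of 204 long genes, Cdh23, which was lower, beside 0.467% of all genes tested (0.0612% lower) and 35 long genes at an unadjusted p under 0.05. Cdh23 stood at 129 and 92.8 CPM with SGC0649 and at 59.5 and 47.2 CPM with SGC0946 (-1.05 ± 0.20, adjusted p = 0.0308), and the call was lost when any 1 of these 4 libraries was left out (adjusted p = 0.0702 to 0.289). In Th2 cultures 24 of 204 genes (11.8%) passed, 20 higher and 4 lower, beside 7.96% of all genes (5.45% higher, 2.51% lower). Left-out libraries moved these counts: 8 were higher without SGC0649 replicate 2, 6 without SGC0946 replicate 1, and 1 was lower without SGC0946 replicate 1. The medians were 0.062 in Th1 and 0.11 in Th2, beside -0.0039 and 0.010 over all genes.

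Of the 24 genes called with SGC0946 in Th2, 20 were called in the same direction in KO Th2 (9.8% of the set, beside 5.83% of all genes), 2 in the opposite direction (Ltbp1 and Tanc2) and 2 (Adam12 at -0.94, adjusted p = 0.126, and Dlc1 at 0.54, adjusted p = 0.271) were not called there. The 2 comparisons share no library. Focad stood at 173 and 176 CPM with SGC0649 and at 326 and 319 CPM with SGC0946 (0.88 ± 0.09, adjusted p = 1.86e-05), so the inhibitor moved it in the direction of the deletion, whose effect was larger by 1.77 ± 0.12 (adjusted p = 3.09e-08). Prkca stood at 77.5 and 82.1 against 46.1 and 48.8 CPM (-0.75 ± 0.10, adjusted p = 0.000317), and the effect of deletion was lower by 0.88 ± 0.15 (adjusted p = 0.000215). Glis3 stood at 0.197 and 0.283 against 2.01 and 2.15 CPM (3.05 ± 0.48, adjusted p = 0.000972), and here the effects of deletion and inhibitor differed by 0.99 ± 0.78 (adjusted p = 0.415). Both Glis3 folds rest on few counts, since WT Th2 cultures without compound and with SGC0649 lay below 1 CPM. Slc9a9 stood at 8.57 and 7.92 against 26.5 and 22.9 CPM (1.58 ± 0.23, adjusted p = 0.000561), with a difference from deletion of 0.85 ± 0.33 (adjusted p = 0.0589), and Plcl1 at 9.26 and 5.09 against 22.4 and 15.6 CPM (1.40 ± 0.25, adjusted p = 0.0024), with a difference of 0.86 ± 0.35 (adjusted p = 0.0668). Differences that miss the threshold do not show that deletion and inhibitor act alike. With 1 provisional gene name, these 5 were the genes whose call with SGC0946 in Th2 held under every alternative, 6 of 24.

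Tanc2 went against the deletion. It stood at 435 and 343 CPM with SGC0649 and at 659 and 577 CPM with SGC0946 (0.67 ± 0.15, adjusted p = 0.0134). In Th2 it was lower in KO than in WT, and the difference between the effects was -2.67 ± 0.22 (adjusted p = 3.15e-07). Its call with SGC0946 was lost without SGC0649 replicate 2 (0.154) or SGC0946 replicate 1 (0.138). Several genes with large KO effects did not pass with the inhibitor. Inpp4b stood at 188 and 166 against 138 and 114 CPM in Th2 (-0.49 ± 0.18, adjusted p = 0.12), Macf1 at 667 and 538 against 630 and 581 CPM (0.01 ± 0.12, adjusted p = 0.987) and Msi2 at 163 and 136 against 150 and 137 CPM (-0.06 ± 0.09, adjusted p = 0.766).

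**Figure D5:**
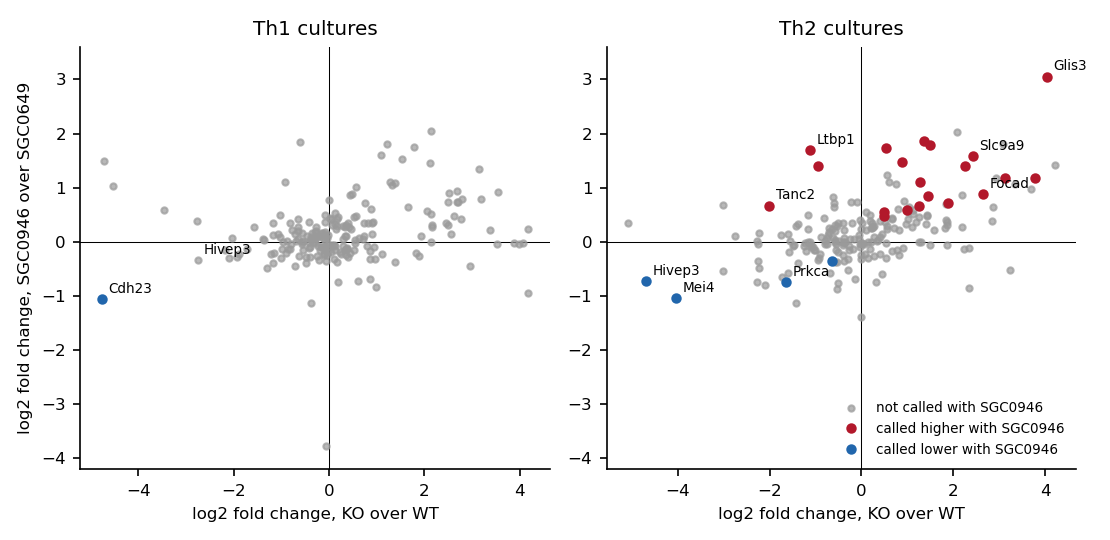
Log2 fold change of each very long gene with deletion (KO against WT, horizontal axis) and with the inhibitor (SGC0946 against SGC0649, vertical axis), in Th1 and Th2 cultures. In Th2 most genes called with the inhibitor lie in the quadrants of matching sign, with Ltbp1, Tanc2 and Adam12 (not called with deletion) as the exceptions, and inhibitor effects are mostly nearer to 0 than deletion effects.

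The effect of deletion minus that of the inhibitor passed for 68 of 204 genes in Th1 (23 higher and 45 lower, beside 30.7% of all genes, 12.8% higher and 17.9% lower) and for 86 in Th2 (29 higher and 57 lower, beside 32%, 15% higher and 17% lower). In Th1 the count was 40 without SGC0946 replicate 1. In Th2 the RNA-binding and protein synthesis genes gave 6 of 8 with a lower effect of deletion, transcription and chromatin factors 11 of 30 and cytoskeleton genes 12 of 28, with 0, 0 and 3 higher. Across the 204 genes Spearman's rank correlation between the effects was 0.27 in Th1 and 0.48 in Th2. The control compound against no compound changed 0 long genes in Th1 with edgeR (6 at an unadjusted p under 0.05, 0 with DESeq2), beside 0.0153% of all genes, and lowered 1 in Th2 (33 unadjusted), beside 0.673% of all genes (0.428% lower). That gene was Hivep3, at 373 and 293 CPM without compound and at 198 and 179 CPM with SGC0649 (-0.82 ± 0.14, adjusted p = 0.017). With SGC0946 it stood at 104 and 125 CPM, lower than with SGC0649 by 0.72 ± 0.14 (adjusted p = 0.00487), a call lost without SGC0946 replicate 1 (0.07). The count in Th2 was 0 without WT Th2 replicate 1 or SGC0649 replicate 2 and 29 without SGC0649 replicate 1.

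More long genes were lower than higher in WT Th1 cultures against WT naive cells. Against naive cells 143 of 204 passed in Th1, 52 higher and 91 lower, beside 67.3% of all genes (34.3% and 33%), with a median of -0.32 beside 0.0037. In Th2 152 passed, 74 higher and 78 lower, beside 71.9% (36.9% and 35%). Th1 and Th2 cultures differed in 119 genes, 53 higher and 66 lower in Th1, beside 53.3% (26% and 27.3%). Between WT naive and WT Th1 libraries the summed myeloid markers went from 433 to 566 CPM to 78.9 to 81.6 CPM, stromal markers from 269 to 272 to 130 to 137 CPM and erythroid markers from 200 to 313 to 0.248 to 0.679 CPM, and their part in these counts was not tested. Of the 27 genes in the list of kinases, phosphatases and lipid signalling, 19 were lower and 1 higher in WT Th1 than in WT naive cells. Ttc28, the gene of a tetratricopeptide protein, stood at 82.3 and 87.7 CPM in WT naive cells and at 6.03 and 5.21 CPM in WT Th1 (-3.92 ± 0.21, adjusted p = 6.62e-11), and was called in no KO comparison.

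The very long genes together held 1.17% ± 0.016 (SD, n = 2) of protein-coding counts in WT naive and 1.11% ± 0.018 in KO naive cells. The share was 0.882% ± 0.0064 in WT Th1 and 0.724% ± 0.0036 in KO Th1, and 0.905% ± 0.0052 in WT Th2 and 0.778% ± 0.036 in KO Th2. With SGC0649 and SGC0946 it was 0.849% ± 0.0073 and 0.818% ± 0.0014 in Th1, and 0.881% ± 0.026 and 0.928% ± 0.034 in Th2. On this scale both KO libraries lay below both WT libraries in each of the 3 conditions, and the inhibitor libraries lay below their controls in Th1 and above them in Th2. An exact permutation test of 2 against 2 cannot go below 0.333. Over totals scaled by TMM, a choice added after values had been seen, the Th2 groups overlapped, at 0.919% and 0.911% in WT and 0.915% and 0.857% in KO, as did SGC0649 (0.883% and 0.798%) and SGC0946 (0.975% and 0.881%) in Th2. The KO libraries stayed below WT on that scale in naive cells (1.01% and 1.06% against 1.17% and 1.17%) and Th1 (0.675% and 0.666% against 0.905% and 0.891%). The 10 most counted genes supplied 40.9% of these counts, led by Macf1, Dock2, Pde4b, Sh3kbp1 and Utrn. Without those 10 the share was 0.501% ± 0.0023 in WT Th1 and 0.433% ± 0.0096 in KO Th1, and 0.584% ± 0.00029 in WT Th2 and 0.505% ± 0.0057 in KO Th2, so the KO libraries remained lower. Over TMM-scaled totals these values were 0.595% and 0.586% in WT Th2 and 0.580% and 0.571% in KO Th2.

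Genes of elongation and topoisomerases formed a list of 46, not limited by length, of which 45 were tested. They were higher and lower in KO 2 and 13 times in naive cells, 4 and 19 times in Th1 and 8 and 17 times in Th2. Of all genes tested, 16% and 12.4% were higher and lower in naive cells, 24.8% and 25.8% in Th1 and 26.5% and 26.9% in Th2. The list was not matched for level, and 46.7% of all genes with an average log2 CPM over 6 were lower in KO Th1. Median log2 fold changes of the list were -0.12, -0.14 and -0.12. Dot1l itself is on the list. Top2b, the type II topoisomerase of cells that do not divide, was lower in all 3 conditions (-0.24, -0.39 and -0.40), as were Iws1, Supt6 and Ccnk, and Ell2 was higher in all 3. With SGC0946 0 of 45 passed in either culture, beside 0.467% of all genes in Th1 and 7.96% in Th2, at medians of -0.013 and -0.053.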

How the data were processed

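RNA sequencing reads of 20 libraries, 10 groups of 2, had been counted per gene by the authors. The deposited values are raw counts made with featureCounts 1.5.3 and strand setting 2 on the gene models of Ensembl 84 (GRCm38), per the file headers. The submitters' processing notes also name edgeR and limma, and an aligner is not given in the sources used here. Intronic reads of the long genes are not counted, since counting was over exons. The table of protein-coding genes was used, and depth ran from 9704500 to 13025588 counts per library.

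Spans and exon lengths were taken from the deposited exon coordinates. Counts were scaled by TMM, filtered with filterByExpr (minimum count 10) and tested with edgeR 4.0.16 (R 4.3.3, limma 3.58.1), with a robust quasi-likelihood fit over all 20 libraries and 1 mean per group. The Benjamini-Hochberg adjustment ran over 13072 genes. The 12 comparisons listed at the outset were joined by 3 differences between KO effects that were added after values had been seen. In data simulated on the naive comparison, 157 of 200 genes changed 2-fold (78.5%) were recovered, and 6 unchanged genes were called among 12592. Alternatives were RLE scaling, no filter, DESeq2 1.42.0, a replicate block, each library left out, other span limits, and the set without genes shorter in RefSeq or with exons that overlap another gene.

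The members and all lists were chosen with earlier results of these data known. Genes were named by rule: the genes at either end of the ordered fold changes (5 each) in the 5 KO and inhibitor comparisons, if called, with no overlap between the libraries of the 2 groups and with a mean log2 CPM not under 1, the 3 most abundant of each role list, the longest gene and the nearest 3 on either side of the limit. Provisional names were left out. Sh3kbp1, Zbtb20, Exoc6b, Gphn, Vav3, Elmo1, Focad, Plcl1, Nebl, Fars2, Pard3, Frmd4a, Kalrn, Agap1, Arhgap6, Arhgap26, Top2b and the remaining genes of the named patterns were chosen after their values were seen. In 2 columns, both of SGC0946 libraries, the name and the title of the sample give different replicate numbers, and the title was used. This touches no group. The replicate block, the numbers of left-out SGC0946 libraries and the correlations of same-numbered libraries do rest on this choice. Same-numbered libraries deviated together in the pairs of groups compared between KO and WT (correlation 0.28 in naive cells, 0.133 in Th1, 0.283 in Th2) and between SGC0946 and SGC0649 (0.379 in Th1, 0.7 in Th2), a reading of the values and not of the labels. The p-values given here do not use this pairing, unless the replicate block is named. A result on 1 gene is not reported here.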

Additional observations from a re-analysis of the deposited data

Results flagged for a closer look

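The effect of deletion had opposite signs in 2 conditions, with the difference itself past the threshold of edgeR's quasi-likelihood test, in 12 results on genes named by rule. These differences were tested after values had been seen, and no cause was tested. No group had the 4 libraries that a test for a stray library needs.

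Setbp1 was higher in KO naive cells and lower in KO cultures, with a difference of -3.50 between Th1 and naive cells (adjusted p = 1.08e-08) and of -3.76 between Th2 and naive cells (3.41e-09). The effect on Itpr1 in Th1 exceeded that in naive cells by 1.18 (adjusted p = 0.00058), but its naive call was lost when any 1 naive library was left out (0.0843 to 0.129). Itpr2 differed by 0.77 between Th2 and naive cells (adjusted p = 0.000261) and by -1.36 between Th1 and Th2 (8.8e-07), and its naive call was lost without WT naive replicate 1 (0.0653), WT naive replicate 2 (0.184) or KO naive replicate 1 (0.269).

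Between Th1 and Th2 the effect differed by -0.94 for Dock2 (adjusted p = 7.17e-06) and by -0.54 for Vwa8 (0.00269), both lower in Th1 and higher in Th2. It differed by 1.58 for Pola1, of DNA polymerase alpha (0.00769), by 2.45 for Cmss1 (8.15e-05), by 4.40 for Slc7a11, the cystine transporter (1.3e-05), by 0.95 for Adk, adenosine kinase (0.00309), and by 6.17 for Mei4 (1.75e-06), all higher in Th1 and lower in Th2. Mei4 stood at 0.17 and 0.0827 CPM in WT Th1, so that its fold there rests on few counts. The call of Cmss1 in Th1 was lost without WT Th1 replicate 1 (0.162) or KO Th1 replicate 1 (0.07), and that of Mei4 in Th1 without WT Th1 replicate 2 (0.113) or KO Th1 replicate 1 (0.0553). Leaving out 1 library also ended the Th1 calls of Pola1 (any of 4 libraries, 0.0749 to 0.125), Adk (WT replicate 1 0.202, WT replicate 2 0.085, KO replicate 1 0.337) and Vwa8 (WT replicate 1 0.0933, KO replicate 2 0.141). In Th2 it ended those of Slc7a11 (any of 4 libraries, 0.0588 to 0.189), Pola1 (WT replicate 2 0.264, KO replicate 1 0.366), Adk (WT replicate 1 0.116, KO replicate 2 0.201) and Vwa8 (WT replicate 1 0.108, KO replicate 1 0.062, KO replicate 2 0.0816).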

How the results depend on the processing

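Among genes named by rule, no result reversed under the alternatives run: 1974 results kept their side of the threshold, 96 no longer passed and 29 newly passed. Of the calls, 21 of 60 in KO naive cells, 68 of 102 in KO Th1, 94 of 138 in KO Th2, 0 of 1 with SGC0946 in Th1 and 6 of 24 with SGC0946 in Th2 held under all alternatives. With 1 library left out, higher and lower genes numbered 17 to 35 and 10 to 17 in KO naive cells (main 32 and 28), and 6 to 30 and 1 to 4 with SGC0946 in Th2 (main 20 and 4). The gene lower with SGC0946 in Th1 was lost each time (0 to 0). SGC0649 against no compound in Th2 gave 0 to 29 (main 1), 6 with DESeq2 and 4 with the replicate block, which moved no other count of calls by over 1.5 times. Deletion minus inhibitor in Th1 gave 40 to 59 (main 68). A fit with 1 library in a group takes its spread from the other groups. The median log2 change ranged from -0.043 to 0.0085 in KO naive cells, -0.0077 to 0.045 in KO Th1, -0.044 to 0.039 in KO Th2, 0.043 to 0.064 with SGC0946 in Th1 and 0.076 to 0.23 in Th2 with 1 library left out. Over a limit of 500 kb it was 0.16, 0.11, -0.094 in KO naive, Th1 and Th2 and 0.22 with SGC0946 in Th2. Over 200 kb it was -0.013 in KO Th1, 0.040 in KO Th2 and 0.033 with SGC0946 in Th1. The cause of these moves was not tested, apart from the fewer libraries or other genes that each alternative brings. Counting error limits the genes below 1 CPM.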
